A study of Mus musculus with 11 samples.

Results

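The genes described here are the 10 genes of the mouse class II major histocompatibility complex (MHC) pathway that the count tables list by name: H2-Aa, H2-Ab1, H2-Eb1, Cd74, H2-DMa, H2-DMb1, H2-DMb2, H2-Oa, H2-Ob and Ciita. They were taken by gene name alone, 10 of 31053 genes, and all 10 were found in every library. Single-cell RNA was measured by the droplet 3′ method in total cells of whole mouse lung, which were freed with dispase and collagenase and depleted of red blood cells by lysis. The 11 libraries came from 4 genotypes: wild type (+/+, 1 library, WT 1), p21 heterozygotes (+/-, 3 libraries, p21Het 1 to 3), p21 mTert animals (+/mTert, 5 libraries, p21mTert 1 to 5) and p21 mTertCD animals (+/mTertCD, 2 libraries, p21mTertCD 1 and 2). The labels do not spell out what CD stands for, and every group except the wild type has 1 altered p21 allele. The age is given as 18 months, except for p21Het 1 (19 months) and p21mTert 1 (20 months). WT 1, p21Het 1 and p21mTert 1 formed the first deposit and the other 8 libraries a later one. The labels do not say whether each library is a separate animal, so the tests measure the spread between libraries. The series title names mTert induction in p21-positive cells, loss of capillaries and emphysema as its subject, so the class II genes are asked about here by lung lineage first and by genotype second.

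Class II molecules carry peptides from ingested or engulfed proteins to the cell surface, where CD4+ T cells read them. H2-Aa and H2-Ab1 encode the alpha and beta chains of the mouse I-A molecule, and H2-Eb1 encodes the beta chain of I-E. Cd74, the invariant chain, fills the groove of newly made class II molecules and guides them to endosomes. H2-DM, made from H2-DMa with H2-DMb1 or H2-DMb2, then exchanges the Cd74 remnant for other peptides, and H2-DO, made from H2-Oa and H2-Ob, holds H2-DM back. Ciita is the transactivator of class II genes and acts without binding DNA itself. Dendritic cells, B cells and many macrophages make these proteins constantly. In the lung, alveolar type 2 (AT2) cells and capillary endothelium are also known to carry them.

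On GRCm38, H2-Oa (17:34092340-34095234), H2-DMa (17:34119541-34139101), H2-DMb2 (17:34143307-34151555), H2-DMb1 (17:34153072-34160230), H2-Ob (17:34238903-34254414), H2-Ab1 (17:34257689-34269419) and H2-Eb1 (17:34305867-34316674) lie on the plus strand of chromosome 17 in the GENCODE annotation. H2-Aa (17:34282744-34287823) lies among them on the minus strand, while Ciita is on chromosome 16 (16:10480059-10528418).

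RefSeq promoters, taken on GRCm38.p6 from 250 bases before to 50 after the start, were at hand for 7 of the 10 genes. In 6 of the 7 the letters CNNNNAAC (part of the X box, where the RFX complex binds) stood 15 to 35 bases before TGATTGG (the Y box, where NF-Y binds). Both motifs were searched on both strands, their letters do not overlap each other, and they were chosen after the sequences had been seen. Of all 32851 RefSeq promoters of that length, 7.82% held TGATTGG, 81.6% held CNNNNAAC and 0.493% held the pair in that order and spacing. The stretches of 5 genes are printed because these elements are what Ciita acts through, and the capitals mark the X letters and the Y box.
H2-Aa, chr17:34287862-34287912, minus strand: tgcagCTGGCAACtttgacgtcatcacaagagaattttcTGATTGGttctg
H2-Eb1, chr17:34305768-34305817, plus strand: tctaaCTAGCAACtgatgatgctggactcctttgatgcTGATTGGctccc
H2-DMb2, chr17:34145118-34145168, plus strand: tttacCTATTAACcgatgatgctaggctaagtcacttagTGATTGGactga
H2-Oa, chr17:34092295-34092345, plus strand: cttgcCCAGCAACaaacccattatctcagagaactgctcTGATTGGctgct
H2-Ob, chr17:34238810-34238857, plus strand: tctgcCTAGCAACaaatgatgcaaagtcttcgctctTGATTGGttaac
The gap between the boxes is 26 bases in H2-Aa, H2-DMb2 and H2-Oa, 25 in H2-Eb1 and 23 in H2-Ob. H2-DMb1 holds both boxes with a gap of 26, and neither promoter of H2-DMa holds TGATTGG in this window. A match of letters is a description and not a measured binding site.

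Barcodes with 1000 to 30000 unique molecular identifiers (UMIs, counts of captured RNA molecules) and at most 14% mitochondrial UMIs passed, 69267 of 81983. After 4237 predicted doublets were left out, 65030 cells remained, 4506 to 7807 a library, with a median of 4024.5 to 6260 UMIs a cell. The 3 libraries of the first deposit had a median mitochondrial share of 6.30 to 6.58%, against 2.81 to 4.27% in the later 8. Clusters were named "X-like" from marker genes, with the class II genes kept out of the clustering and the naming, which gave 29 lineages and left 19 of 68 clusters (14324 cells) unnamed. Libraries shared at most 1.46% of barcodes (83, between p21mTert 3 and p21mTert 5). p21mTertCD 1 stood apart in its cells: 74 B cell-like cells, 1.2% of the library, against 759 to 2140 (9.72 to 37.2%) elsewhere.

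The 10 genes gave 4424893 UMIs in kept cells, and 47.6% of them were Cd74. Levels are in CPM, a gene's UMIs scaled to all UMIs of a lineage in a library, and are given as mean ± SD over libraries with at least 20 cells of it. Because the method counts 1 tag per RNA end, levels of different genes are compared as tags and not per length. The class II chains were highest in conventional dendritic cells of type 1 (cDC1-like) and type 2 (cDC2-like) and in interstitial macrophage-like cells. H2-Aa reached 8100 ± 646 in cDC1-like, 7796 ± 1304 in cDC2-like and 7761 ± 1580 in interstitial macrophage-like cells (n = 11), and the ranges of these 3 overlapped. B cell-like cells followed at 3834 ± 404 (n = 11), and their highest library (4493) lay below the lowest interstitial macrophage-like library (5294). Mature DC-like cells had 2984 (2496 and 3473, n = 2) and plasmacytoid DC-like cells 1686 ± 272 (n = 3), and these 2 ranges did not overlap either. From there down every lineage overlapped the next in its range.

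**Figure D1:**
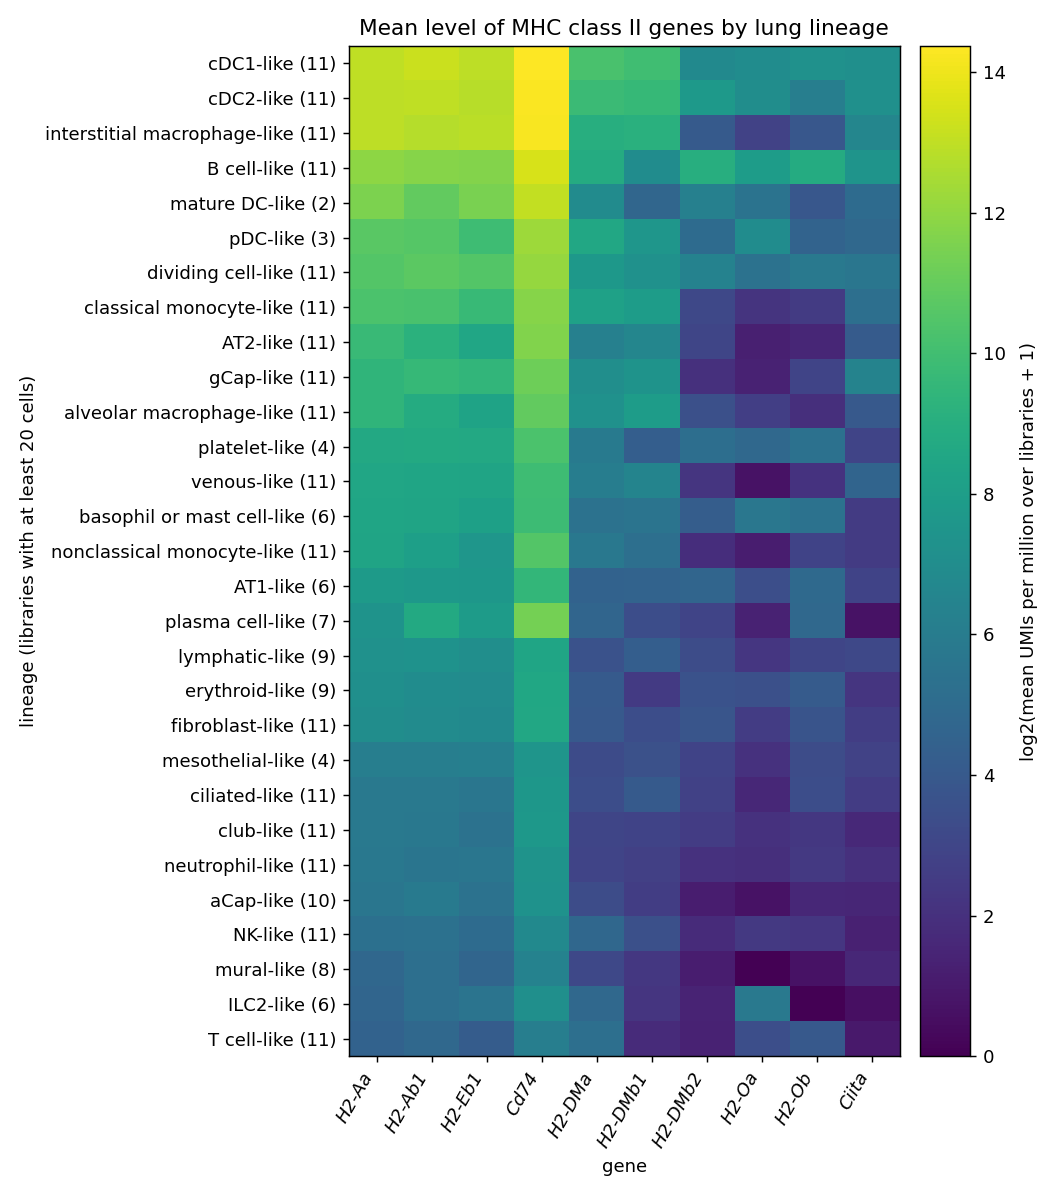
Level of the 10 class II genes (columns) in 29 marker-named lineages (rows, ordered by H2-Aa, number of libraries in brackets), as log2 of the mean CPM over libraries plus 1. The chain genes and Cd74 fill a gradient from cDC1-like (H2-Aa 8100) to T cell-like cells (22.1), while H2-DMb2, H2-Oa and H2-Ob stand out in B cell-like and dendritic cells.

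Below the professional antigen-presenting cells came dividing cell-like (1488 ± 790), classical monocyte-like (1282 ± 499), AT2-like (851 ± 123), general capillary endothelial cell-like (gCap-like, 670 ± 173), alveolar macrophage-like (665 ± 308), venous endothelial cell-like (359 ± 163) and nonclassical monocyte-like cells (341 ± 180; all n = 11). Platelet-like cells, few in number (252), had 408 ± 130 (214 to 494, n = 4), above the venous-like mean and overlapping the lowest gCap-like library (451). Erythroid-like cells, whose own cell type lacks these genes, had 143 ± 126 (32.5 to 404, n = 9) and serve as the measure of free RNA here, though the platelet-like level was higher. The AT2-like mean was 6.0 times and the gCap-like mean 4.7 times the erythroid-like mean, and in both every library lay above all erythroid-like libraries. Such separation was seen in 9 lineages: AT2, B cell, cDC1, cDC2, classical monocyte, gCap, interstitial macrophage, mature DC and plasmacytoid DC. The venous-like mean was 2.5 times the erythroid-like mean, with overlapping ranges. Aerocyte-like cells, the other capillary endothelial type (aCap-like), had 49.8 ± 22.5 (13.5 to 96.3, n = 10), below the gCap-like range of 451 to 1014. With every cell thinned to 1000 UMIs, an H2-Aa UMI was found in 98.9% of cDC1-like, 95.2% of B cell-like, 54.6% of AT2-like, 43.7% of gCap-like, 28.5% of venous-like, 5.9% of erythroid-like and 3.6% of aCap-like cells. Without thinning the gCap-like share was 72.5% and the erythroid-like share 12.4%, at library medians of 2486 to 4219 and 2743 to 5797 UMIs a cell.

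The 3 chain genes did not keep the same proportions everywhere. H2-Ab1 had 9719 in cDC1-like and 8016 in cDC2-like cells, 790 (499 to 1372) in gCap-like and 581 in AT2-like cells. H2-Eb1 had 7949 in cDC1-like, 692 in gCap-like and 369 in AT2-like cells. AT2-like cells therefore had 0.43 H2-Eb1 UMIs for each H2-Aa UMI and alveolar macrophage-like cells 0.48, against 0.99 in cDC1-like and 1.02 in gCap-like cells. The ratio in gCap-like cells was thus close to that of cDC1-like cells at a far lower level.

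Cd74 followed the chains in order, from 21169 ± 1504 in cDC1-like, 19745 ± 2967 in cDC2-like and 19259 ± 4034 in interstitial macrophage-like cells to 11360 in B cell-like, 3185 ± 335 in AT2-like, 2350 ± 965 in gCap-like and 162 in aCap-like cells. Plasma cell-like cells, the antibody-secreting cells that follow B cells, departed from it. They held Cd74 at 2614 ± 202 (2423 to 2986, n = 7) with H2-Aa at only 168 ± 60.1 and Ciita at 0.6 ± 0.7. That is 17.1 Cd74 UMIs for each H2-Aa UMI (11.3 to 29.8 over 7 libraries). The ratio was 2.98 in B cell-like (2.78 to 3.34 over 11 libraries), 3.71 in AT2-like and 2.61 in cDC1-like cells. Nonclassical monocyte-like cells also had a raised ratio, 4.45. Plasma cell-like cells were the only lineage of the 29 with a ratio above 5.

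H2-DM was also highest in antigen-presenting lineages. H2-DMa, its alpha chain, was highest in cDC1-like cells (1214 ± 113), then cDC2-like (875 ± 64.4), interstitial macrophage-like (512 ± 99.0) and B cell-like cells (464 ± 29.1), and the cDC1-like and cDC2-like ranges did not overlap each other or the rest. gCap-like cells had 136 ± 38.7, AT2-like 76.7 and venous-like 66.8. T cell-like cells had H2-DMa at 36.4 ± 6.2 (25.5 to 43.3) beside H2-Aa at 22.1 ± 9.7 (10.6 to 41.1), against 15.5 ± 9.4 and 143 ± 126 in erythroid-like cells. H2-DMa therefore made up 17.6% of the class II UMIs of T cell-like cells and 2.24% of those of erythroid-like cells.

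The beta chain of H2-DM differed by lineage in which gene supplied it. H2-DMb1 was at 1002 ± 98.6 in cDC1-like, 795 in cDC2-like and 560 in interstitial macrophage-like cells but at 127 ± 23.1 in B cell-like cells, below gCap-like cells (168). H2-DMb2 was at 516 ± 60.1 in B cell-like cells (398 to 584), 206 ± 53.2 in cDC2-like, 112 ± 23.7 in cDC1-like and 15.9 in interstitial macrophage-like cells. H2-DMb2 therefore made up 80.1% of H2-DMb UMIs in B cell-like cells (75.9 to 83.6% over 11 libraries). The share was 20.7% in cDC2-like (14.3 to 28.6%) and 10.5% in cDC1-like cells (7.54 to 14.9%). It was 6.90% in AT2-like, 2.51% in interstitial macrophage-like and 1.45% in gCap-like cells. The B cell-like and cDC2-like ranges do not touch. Mature DC-like cells (68.8%) and erythroid-like cells (70.9%) also had high shares. In mature DC-like cells this came with H2-DMb1 at 25.9. The split between the 2 genes is uncertain, since they share sequence: of 451 words of 50 bases at the 3′ end of H2-DMb1, 92 (20.4%) also occur in H2-DMb2. Of 457 such words of H2-DMb2, 62 (13.6%) also occur in 164 other genes and 0 in H2-DMb1.

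H2-DO was chiefly a B cell-like pair. H2-Oa was at 242 ± 28.1 in B cell-like cells (203 to 283), 129 in cDC2-like, 125 in cDC1-like and 125 in plasmacytoid DC-like cells. H2-Ob was at 451 ± 67.4 in B cell-like cells (326 to 549), 155 ± 24.3 in cDC1-like and 70.1 in cDC2-like cells. For both genes the lowest B cell-like library lay above the highest library of every dendritic type. Per 100 H2-DM UMIs, B cell-like cells held 63.4 H2-O UMIs (57.9 to 70.4), cDC1-like 11.8 (8.74 to 16.1), cDC2-like 10.5 (7.04 to 13.3), gCap-like 2.24 and interstitial macrophage-like cells 1.58. Venous-like cells held 2.90, aCap-like 12.9 and lymphatic-like cells 24.7. Other lineages, with fewer class II UMIs in all than gCap-like cells, had ratios as high as B cell-like cells or higher: plasma cell-like 70.9, T cell-like 64.9, basophil or mast cell-like 123 and ILC2-like 158, with erythroid-like cells at 58.0. The ratio was 1.32 in classical monocyte-like, 1.82 in alveolar macrophage-like and 1.84 in AT2-like cells.

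**Figure D2:**
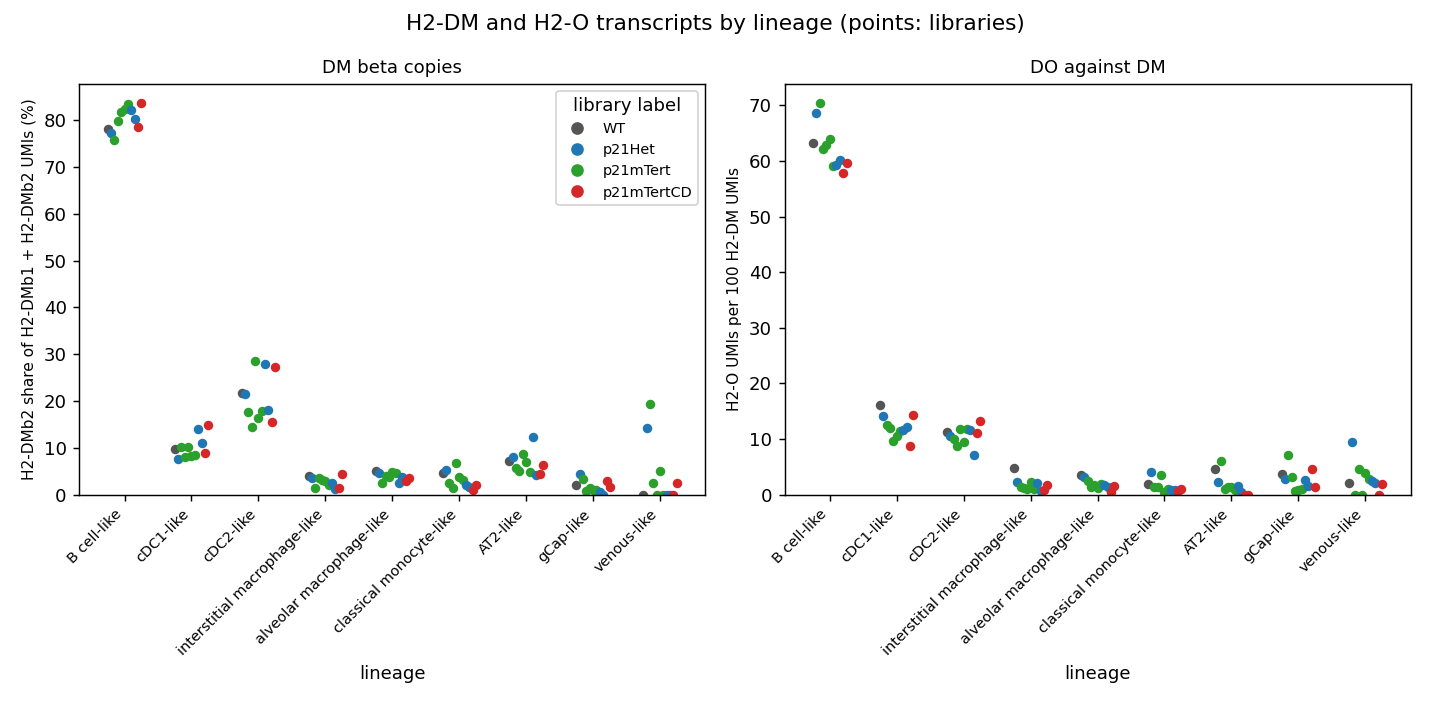
Left, H2-DMb2 as a percentage of H2-DMb1 plus H2-DMb2 UMIs; right, H2-Oa plus H2-Ob UMIs per 100 H2-DM UMIs; each point is a library and 9 lineages are shown. B cell-like libraries sit at 75.9 to 83.6% on the left and 57.9 to 70.4 on the right, above all cDC1-like and cDC2-like libraries.

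The alpha and beta chains of H2-DO came apart in group 2 innate lymphoid cell-like (ILC2-like) cells. These had H2-Oa at 55.7 ± 10.0 (45.8 to 74.5, n = 6) and no UMI of H2-Ob in any library, with H2-Aa at 24.7 ± 13.6. Erythroid-like cells had H2-Oa at 10.4 ± 16.3 and H2-Ob at 16.7 ± 18.5. The H2-Oa range of ILC2-like cells still meets the highest erythroid-like library (52.7). Basophil or mast cell-like cells had H2-Oa at 51.7 ± 11.5 (34.6 to 68.0, n = 6) with H2-Ob at 42.2 ± 26.2, while their H2-Aa ran from 5.9 to 1240.

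Ciita was a low-count gene that ranked lineages much as H2-Aa did (rank correlation 0.91) but with a different top. It was highest in B cell-like cells (173 ± 42.4, 123 to 262), followed by cDC2-like (148 ± 44.1), cDC1-like (143 ± 53.0), interstitial macrophage-like (94.3) and gCap-like cells (83.5 ± 47.6, 49.3 to 219). Neighbours in this order overlapped. Venous-like cells had 23.7 ± 21.8, AT2-like cells 16.3 ± 4.6, alveolar macrophage-like cells 15.1, erythroid-like cells 3.6 and aCap-like cells 1.9. Set against the gene it controls, Ciita gave 115 UMIs per 1000 H2-Aa UMIs in gCap-like, 103 in mural-like (from 10 Ciita UMIs), 80.9 in ciliated-like, 66.2 in venous-like, 45.4 in B cell-like, 19.3 in AT2-like, 17 in cDC1-like and 11.3 in interstitial macrophage-like cells. AT2-like and gCap-like cells thus had similar H2-Aa (851 and 670) at different Ciita (16.3 and 83.5). In the AT2-like lineage 3 libraries were shallow, with medians of 2798.5 (p21mTertCD 1), 2824.5 (p21Het 2) and 3766 (p21mTert 1) UMIs a cell against 14245.5 to 22488.5 in the others.

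Across the 29 lineages, on log2 of the mean level plus 1, Ciita correlated with the mean of H2-Aa, H2-Ab1, H2-Eb1 and Cd74 at r = 0.90, H2-DMa at 0.91, H2-DMb1 at 0.90, H2-DMb2 at 0.79, H2-Ob at 0.62 and H2-Oa at 0.56. Outside the members, the genes most like that mean among 8800 were Cd83 (r = 0.83), Ly86 (0.80), Gm6377 (0.79), Pkib (0.78) and Kmo (0.77). These are descriptions over lineages that share the same libraries and depth. Cd83, a surface protein that slows class II turnover, had 587 ± 127 in cDC1-like and 602 ± 83.5 in B cell-like cells but 5.4 ± 4.0 in gCap-like and 17.9 ± 3.8 in AT2-like cells. Ly86 had 345 ± 53.7 in B cell-like and 1.5 ± 1.4 in gCap-like cells, so both were low in gCap-like cells, where class II was not.

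Within a lineage, clusters drawn without the class II genes differed widely in them. Interstitial macrophage-like cells formed 2 clusters. The one led by C1qb, C1qa, C1qc, Ms4a7 and Mmp12 (903 cells) had H2-Aa at 8343 to 11974 in the 11 libraries, and the one led by Ccl8, Cxcl13, Cd163 and Folr2 (449 cells) at 2143 to 6136, with no overlap. Over pooled cells Cd74 was 26197 and 8477, H2-DMb1 765 and 221, and Ciita 120 and 36.6. Alveolar macrophage-like cells also split: the cluster led by Ear1, Krt79, Lpl and Marco (1326 cells) had pooled H2-Aa at 828 and Ciita at 19.8, and the one led by Chil3, Ctsk, Gpnmb and Spp1 (1246 cells) at 207 and 3.1. The latter held 489 cells in p21Het 2 and 437 in p21mTertCD 1, that is 82.7% and 80.3% of their alveolar macrophage-like cells. Those 2 libraries had the lowest alveolar macrophage-like H2-Aa, 107 and 254, against 515 to 1093 in the other 9. Within the cluster of 1246 cells, H2-Aa ran from 83.7 in p21Het 2 to 766 in p21mTert 1, over 5 libraries. Library and mix of clusters therefore cannot be told apart in this lineage's mean. Dividing cell-like cells held a cluster of 236 cells with H2-Aa at 3750 and one of 296 cells at 32. Erythroid-like cells held one of 1345 cells at 33.6 and a shallower one of 926 cells at 283.

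The genotype comparisons were fitted with edgeR's quasi-likelihood test on UMIs summed per library over the 10 replicated libraries. P-values were adjusted by Benjamini-Hochberg over all genes of a fit, and a gene was called at an adjusted p under 0.05. WT 1 has no replicate and is given as a value only. Fewer cells of a type and less RNA per cell cannot be told apart in sums over all kept cells. There, 0 of the 10 genes were called in p21mTert against p21Het (0.0116% of 17298 genes were), 0 in p21mTert against p21mTertCD (0.00578%) and 0 in p21mTertCD against p21Het (0.0405%). None had an unadjusted p under 0.05 either, where 7.53%, 16.0% and 6.37% of all genes had one. DESeq2 also called 0. The lowest library in the B cell-dominated genes was p21mTertCD 1, with H2-DMb2 at 11.5 (55.3 to 152 elsewhere), H2-Oa at 8.4 (28.1 to 82.5) and H2-Ob at 8.9 (42.2 to 130), the library with 74 B cell-like cells. Without p21mTertCD 2, which leaves that library alone in its group and its spread assumed like the others', edgeR called H2-DMb2 (log2 difference 2.95, adjusted p = 0.0263) and H2-Oa (2.41, adjusted p = 0.0473) as higher in p21mTert than in p21mTertCD. In B cell-like cells themselves, p21mTertCD 1 had H2-DMb2 at 398 and p21mTertCD 2 at 571, against 449 to 584 in the other groups.

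Within 22 lineages, 160 combinations of gene and lineage had enough counts to be tested and 60 did not. The filter on low counts asks for about 10 UMIs at the median library size in 2 libraries. Of the 160, 15 would not have passed it without 1 of the 3 groups, and for 6 of these that group was p21mTertCD. They stay in the counts below. In p21mTert against p21Het 0 of 160 were called (0.041% of 163397 tests over all genes were) and 6, or 3.75%, had an unadjusted p under 0.05, against 5.63% over all genes. In p21mTert against p21mTertCD 3 were called (0.102% over all genes) and 33, or 20.6%, had an unadjusted p under 0.05, against 6.01% over all genes. In p21mTertCD against p21Het 1 was called (0.11%) and 24 had an unadjusted p under 0.05, against 4.80%. The members within a lineage move with each other, and both comparisons share the 2 p21mTertCD libraries, so these counts are not separate pieces of evidence. The 4 calls were Ciita in gCap-like cells and Ciita and H2-DMa in venous-like cells. Venous-like Ciita passed the filter on low counts only through p21mTertCD. In the other endothelial lineages tested, aCap-like and lymphatic-like, no class II gene was called. In p21mTert against p21mTertCD, 1 of 5778 and 1 of 4538 genes were called there. Of 4 class II genes in each, 0 and 1 had an unadjusted p under 0.05, and of all genes 355 and 208 had one.

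In gCap-like cells 1 of the 8 class II genes tested, Ciita, was called lower in p21mTert than in p21mTertCD. None was called in the other comparisons. Ciita was at 219 and 104 CPM in the 2 p21mTertCD libraries, from 186 and 124 UMIs. It was at 82.3, 60.4 and 49.3 in p21Het, at 72.1, 52.7, 80.3, 57.9 and 79.8 in p21mTert and at 61.2 in WT 1. Both p21mTertCD libraries lay above all others, and p21mTertCD 1 stood far above p21mTertCD 2. Ciita was lower in p21mTert than in p21mTertCD by a log2 difference of -1.31 (SE 0.26, edgeR adjusted p = 0.0411), a 2.48-fold difference, and 0.264% of 9466 genes were called in this comparison. The call rested on p21mTertCD 1: without it the difference was -0.58 (adjusted p = 1.00), and without p21mTertCD 2 it was -1.85 (adjusted p = 0.000440). Leaving out p21Het 3 or any of the 5 p21mTert libraries also ended the call, with differences from -1.41 to -1.24 and adjusted p of 0.0561 to 0.131. Among libraries of the later deposit the difference was -1.30 (edgeR adjusted p = 0.0622), and with predicted doublets kept -1.16 (edgeR adjusted p = 0.125). Leaving out low-depth clusters also ended the call. Against p21Het, p21mTertCD was higher by 1.42 (SE 0.29, edgeR adjusted p = 0.0827), which was not called, where 0.116% of genes were. p21mTert against p21Het gave 0.11 (SE 0.24, adjusted p = 1.00), with 0.0106% of genes called. The thinned share of gCap-like cells with a Ciita UMI was 19.6% and 7.2% in p21mTertCD and 3.4 to 8.0% in the other 9 libraries.

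The structural genes of gCap-like cells did not pass the test. H2-Aa was at 1014 and 896 in p21mTertCD, at 455, 643 and 587 in p21Het, at 568, 451, 721, 775 and 605 in p21mTert and at 654 in WT 1. Both p21mTertCD libraries were above the other 9. The difference of p21mTert from p21mTertCD was -0.69 (SE 0.21, edgeR adjusted p = 0.416). Cd74 was at 4673 and 3210 in p21mTertCD, at 1015, 2645 and 2114 in p21Het, at 1752, 1530, 2332, 2492 and 1969 in p21mTert and at 2115 in WT 1, again without overlap (-1.05, SE 0.31, edgeR adjusted p = 0.317). H2-DMa was at 195 and 209 in p21mTertCD and at 87.7 to 162 elsewhere (-0.77, edgeR adjusted p = 0.212). H2-Ab1 had 1372 and 1040 against 499 to 905, and H2-Eb1 had 1109 and 971 against 435 to 768. H2-DMb1 did not separate, since WT 1 at 211 matched the p21mTertCD libraries at 202 and 211. Of the 8 genes tested, 7 had an unadjusted p under 0.05 in p21mTert against p21mTertCD, all lower, where 5.96% of all genes had one; the median log2 difference of the 8 was -0.84, against 0.01 over all genes. In p21mTertCD against p21Het 7 of 8 also had one, all higher, against 4.42% of all genes (median 0.93). In p21mTert against p21Het none had one, against 3.88%.

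**Figure D3:**
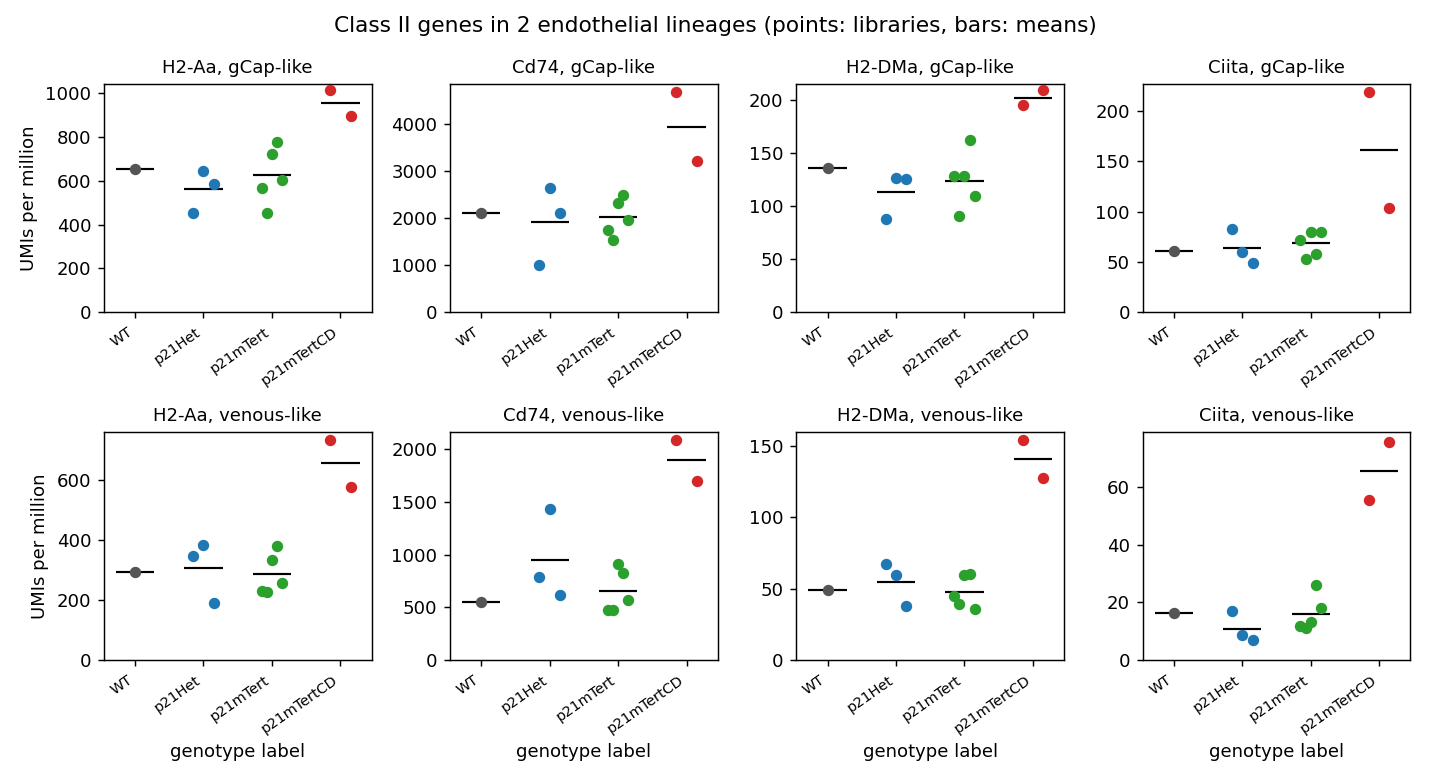
Level (CPM) of H2-Aa, Cd74, H2-DMa and Ciita in gCap-like (top) and venous-like cells (bottom), each point a library, by genotype, with bars at group means. The 2 p21mTertCD points lie above all points of the other groups in each panel; Ciita in gCap-like cells has 219 and 104 there, and 49.3 to 82.3 elsewhere.

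Venous-like cells, far fewer (30 and 103 in p21mTertCD, 51 to 147 elsewhere), held the other 3 calls. Ciita was at 55.4 and 75.6 in p21mTertCD, from 9 and 48 UMIs. It was at 16.9, 8.7 and 7.1 in p21Het, at 11.9, 11, 13.4, 26.1 and 18 in p21mTert and at 16.3 in WT 1, from 3 to 20 UMIs a library. Both p21mTertCD libraries were above every other. p21mTert was lower than p21mTertCD by -2.05 (SE 0.34, edgeR adjusted p = 0.0437), a 4.13-fold difference, where 0.027% of 7415 genes were called. p21mTertCD was higher than p21Het by 2.67 (SE 0.40, edgeR adjusted p = 0.0185), a 6.39-fold difference, and Ciita was the 1 gene called there (0.0135%). Ciita passed the filter on low counts (20.1 CPM) in both p21mTertCD libraries and p21mTert 4 alone, so it was tested only through the group where it is high, and its calls support nothing beyond the values themselves. p21mTert against p21Het gave 0.63 (SE 0.40, adjusted p = 0.970). Without p21mTertCD 2 the 2 differences were -1.82 (adjusted p = 0.559) and 2.45 (adjusted p = 0.534), and without p21mTertCD 1 they were -2.14 (adjusted p = 0.161) and 2.77 (adjusted p = 0.0454). The first was also not called without p21mTert 1, 2, 3 or 5 (adjusted p of 0.0722 to 0.187), and the second without p21Het 2 (0.0961) or p21Het 3 (0.112). In the 8 later libraries they were -1.96 (edgeR adjusted p = 0.0588) and 3.01 (edgeR adjusted p = 0.0200), and with doublets kept -1.86 (0.273) and 2.10 (0.124). With 9 UMIs behind its value, p21mTertCD 1 had no thinned cell with a Ciita UMI, and unthinned shares were 26.7% and 25.2% in p21mTertCD and 3.7 to 10.4% elsewhere.

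H2-DMa in venous-like cells was at 154 and 127 in p21mTertCD, at 67.6, 59.6 and 38.1 in p21Het, at 44.6, 39.3, 59.3, 60 and 36.1 in p21mTert and at 49 in WT 1, without overlap, and passed the filter in all 10 libraries tested. It was lower in p21mTert than in p21mTertCD by -1.48 (SE 0.25, edgeR adjusted p = 0.0437), a 2.79-fold difference. Leaving out p21mTertCD 1 (adjusted p = 0.587), p21mTertCD 2 (0.186) or p21mTert 1, 2, 4 or 5 (0.0537 to 0.187) ended that call, as did the later deposit alone (-1.42, edgeR adjusted p = 0.0588) and keeping doublets (-1.38, 0.273). Against p21Het the difference of p21mTertCD was 1.30 (SE 0.27, edgeR adjusted p = 0.172). H2-Aa was at 733 and 578 in p21mTertCD and at 191 to 382 in the other 9 libraries (p21mTert against p21mTertCD -1.21, SE 0.26, edgeR adjusted p = 0.168). Cd74 was at 2081 and 1697 against 477 to 1432 (-1.56, SE 0.30, edgeR adjusted p = 0.109). The 7 genes tested include Ciita, which passed the filter on low counts only through p21mTertCD. All 7 had an unadjusted p under 0.05 in p21mTert against p21mTertCD, all lower, where 5.17% of all genes had one (median of the 7 -1.38). In p21mTertCD against p21Het 6 of 7 had one, all higher, against 4.33%, and 1 of 7 in p21mTert against p21Het, lower, against 5.04%.

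Markers of immune cells were read in these endothelial lineages beside the class II values, and their part in the difference was not tested. In gCap-like cells the summed level of 24 B cell markers was 505 to 585 in p21mTertCD, 287 to 1200 in p21Het and 276 to 4119 in p21mTert, and Cd79a was 0.8 to 5.9, 3.4 to 9.7 and 2.6 to 23.9. The 17 cDC1 markers summed to 932 to 1314 in p21mTertCD, 879 to 1446 in p21Het and 960 to 1286 in p21mTert. The 17 cDC2 markers summed to 337 to 495 in p21mTertCD, 418 to 515 in p21Het and 390 to 471 in p21mTert. The 15 interstitial macrophage markers summed to 510 to 515 in p21mTertCD and 388 to 574 elsewhere. In venous-like cells the B cell markers summed to 382 to 647 in p21mTertCD, 300 to 1049 in p21Het and 310 to 765 in p21mTert. The cDC1 markers summed there to 1004 to 1371, 1001 to 1484 and 1104 to 1441, the cDC2 markers to 431 to 449, 376 to 474 and 300 to 472, and the interstitial macrophage markers to 744 to 831, 718 to 1134 and 607 to 914. C1qa was there at 3.1 to 6.2 in p21mTertCD, 0 to 5.8 in p21Het and 0 to 3.1 in p21mTert. The H2-DMb2 share of H2-DMb UMIs over all libraries, 80.1% in B cell-like cells, was 1.45% in gCap-like and 3.88% in venous-like cells. It was as low in interstitial macrophage-like (2.51%), classical monocyte-like (2.57%) and alveolar macrophage-like cells (3.77%), so it does not tell endothelial from these cells.

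Nonclassical monocyte-like cells, which patrol the vessel wall, had lower class II values in p21mTert without a call. H2-Aa was at 485 and 505 in p21mTertCD, at 398, 332 and 383 in p21Het, at 217, 150, 390, 155 and 68.4 in p21mTert and at 671 in WT 1. p21mTert 5 was the lowest, and p21mTert 3 overlapped p21Het. H2-Ab1 was at 403 and 400 in p21mTertCD, 328, 293 and 319 in p21Het, and 212, 142, 249, 130 and 54.3 in p21mTert, where the 5 p21mTert libraries lay below all others. Its log2 difference was -1.41 against p21mTertCD (SE 0.35, edgeR adjusted p = 0.133) and -0.98 against p21Het (SE 0.31, edgeR adjusted p = 0.726). It was called against p21mTertCD when p21mTert 3 (-1.67, adjusted p = 0.0489) or p21mTert 5 (-1.18, adjusted p = 0.0414) was left out. Of 8 genes tested, 6 had an unadjusted p under 0.05 in p21mTert against p21mTertCD (8.30% of all genes; 0.44% called) and 3 in p21mTert against p21Het (5.74%; 0.0119% called), all lower. In p21mTertCD against p21Het none had one (6.20%; 0.285% called).

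In fibroblast-like cells the differences had the opposite sign, at low levels and without a call. Positive log2 differences of p21mTert from p21mTertCD were also found for 10 of 10 genes in dividing cell-like (median 0.95, 2 with an unadjusted p under 0.05) and 10 of 10 in alveolar macrophage-like cells (median 0.48, 0 with one). The counts were 8 of 9 in AT2-like (median 0.20, 1 with one) and 4 of 4 in both club-like (median 1.59, 0 with one) and neutrophil-like cells (median 0.46, 0 with one). Of all genes in these lineages, in that order, 5.54%, 5.33%, 5.52%, 10.9% and 6.54% had an unadjusted p under 0.05. No class II gene was called in them, where 0.0118%, 0.0%, 0.0188%, 1.99% and 0.0169% of all genes were. The dividing cell-like cluster of 296 cells, low in H2-Aa, held 73.6% and 60.4% of that lineage in p21mTertCD 1 and 2. It held 31.5 to 65.0% in p21mTert. In the cluster of 236 cells H2-Aa was 5000 in p21mTertCD 1 and 2766 to 3504 in p21mTert 1 to 4. The part of this mix was not tested. No class II gene was called in them, where 0.0118%, 0.0%, 0.0188%, 1.99% and 0.0169% of all genes were.

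In fibroblast-like cells H2-Aa was at 14.4 and 48.2 in p21mTertCD, at 166, 130 and 77.9 in p21Het, at 212, 171, 160, 113 and 131 in p21mTert and at 244 in WT 1. These values are in or below the range of erythroid-like cells (32.5 to 404). None of the 8 genes tested was called (0.0% of 9509 genes were); for H2-Aa in p21mTert against p21mTertCD the difference was 2.19 (SE 0.38, edgeR adjusted p = 0.175), while 7 of 8 had an unadjusted p under 0.05, all higher, against 4.51% of all genes. Of the 8, H2-DMb1 and H2-DMb2 would not have passed the filter on low counts without p21mTert. In p21mTertCD against p21Het 7 of 8 had one, all lower, against 3.84% of all genes, and in p21mTert against p21Het none had one, against 5.64%. For H2-Aa the difference of p21mTert from p21mTertCD was called without p21Het 3 (2.18, adjusted p = 0.0411) and without p21mTertCD 2 (3.34, adjusted p = 0.0166), and by DESeq2 (2.25, adjusted p = 7.87e-06). It turned to -0.38 (adjusted p = 1.00) when each cell was gated on its own markers instead of by cluster. B cell markers moved with the fibroblast-like difference: Cd79a was at 0 to 23.1 in p21mTertCD, 28.3 to 72.5 in p21Het and 37.1 to 124 in p21mTert, and Ms4a1 at 1.1 to 3.0, 11.3 to 30.1 and 8.4 to 41.5. All 24 B cell markers summed to 350 to 635 in p21mTertCD, 797 to 2902 in p21Het and 694 to 2903 in p21mTert. Of the fibroblast-like class II signal, a cluster of 239 cells with a median depth 0.34 of its libraries' own had H2-Aa at 1566 and more H2-DMb2 (191) than H2-DMb1 (50.1), the order seen in B cell-like cells. The part of B cell RNA in the fibroblast-like difference was not tested.

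In the lineages with the highest class II levels no gene was called between genotypes. In cDC1-like cells H2-Aa was 8089 ± 836 in p21Het (n = 3), 7961 ± 544 in p21mTert (n = 5) and 8235 ± 1119 in p21mTertCD (n = 2). In B cell-like cells it was 3662 ± 351, 3826 ± 292 and 3781 ± 717, and in interstitial macrophage-like cells 7596 ± 2077, 7244 ± 1691 and 8691 ± 495. None of the 10 genes was called in any of the 3 comparisons in B cell-like, cDC1-like, cDC2-like or interstitial macrophage-like cells, and the medians of the 10 log2 differences lay between -0.22 and 0.26. Of all genes, 0.0733%, 0.00916% and 0.0% were called in B cell-like cells, in the order of comparisons given above. The shares were 0.0132%, 0.0264% and 0.0132% in cDC1-like, 0.0135%, 0.027% and 0.0% in cDC2-like, and 0.0112%, 0.0224% and 0.0112% in interstitial macrophage-like cells. In AT2-like cells H2-Aa was 876 ± 91.3, 871 ± 81.3 and 729 ± 263, the last from 543 in the shallow p21mTertCD 1 and 915 in p21mTertCD 2. An unnamed cluster led by Itih4, Pigr, Chil1 (an AT2 marker) and Muc1 held 107 cells of p21mTertCD 1 and 8 of p21mTertCD 2. Those cells are outside these means, and whether they belong with AT2-like cells was not tested. Ciita in cDC1-like cells was the 1 gene of the 10 with an unadjusted p under 0.05 in p21mTert against p21Het there (-0.45, SE 0.17, edgeR adjusted p = 0.940), where 4.94% of all genes had one. It was at 221, 140 and 137 in p21Het and 87.8 to 129 in p21mTert, without overlap, and at 107 and 136 in p21mTertCD. Ciita in B cell-like cells was 151 ± 39.6, 176 ± 50.1 and 170 ± 8.3, so the order of groups in gCap-like cells was not seen there. Whether the genotype effect differed between lineages was not tested.

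**Figure D4:**
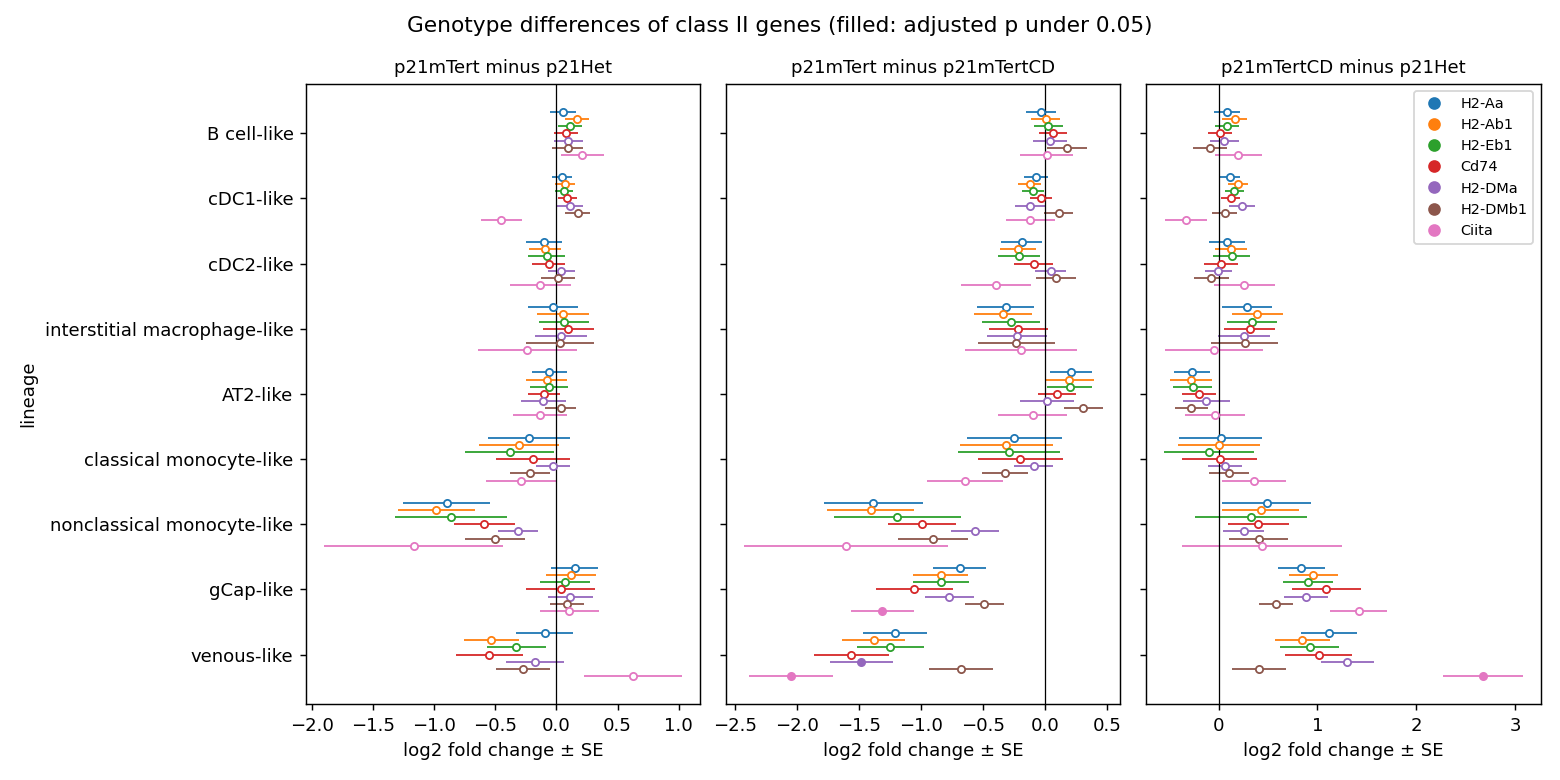
Log2 fold change with its standard error (bars) for 7 class II genes in 9 lineages, in the 3 comparisons of genotypes, from edgeR. Filled points have an adjusted p under 0.05: Ciita in gCap-like cells (-1.31), and Ciita (-2.05 and 2.67) and H2-DMa (-1.48) in venous-like cells. Venous-like Ciita passed the filter on low counts only through p21mTertCD.

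Of other genes of the pathway, 4 lists are described here. Of the 9 measured genes of class II processing and turnover (4 cathepsins, Lgmn, Cd83 and others), 0 of 153 combinations with a lineage were called in any comparison. Likewise 0 of 110 were called for the 7 promoter factors of the RFX, NF-Y and CREB families, 0 of 58 for the 6 costimulatory genes and 0 of 2 for the 1 further class II locus measured. Over all genes, 0.041%, 0.102% and 0.11% of combinations were called in the 3 comparisons, so counts of 0 are near the background and say nothing particular of these lists. None of the 4 lists had a call in all kept cells.

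Irf8 and Irf1, transcription factors of the interferon regulatory family, were also read. Irf8 in nonclassical monocyte-like cells was at 207 and 237 in p21mTertCD and 97.4 to 172 elsewhere, without overlap, and was called lower in p21mTert than in p21mTertCD (-0.80, SE 0.16, edgeR adjusted p = 0.0447). Irf1 in gCap-like cells overlapped between all groups, at 275 and 199 in p21mTertCD and 184 to 323 elsewhere. In classical monocyte-like cells no class II gene was called, where 0.0866%, 0.249% and 0.964% of all genes were in the 3 comparisons, and H2-Aa was 1417 ± 375 in p21mTertCD and 1415 ± 939 in p21Het.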

How the data were processed

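The deposited files hold, for each of 11 mouse lung libraries, whole-number UMI counts per gene and barcode, not normalized. The submitters' design text says that reads were mapped to mm10 with Cell Ranger v2.3, while the headers of all 11 matrices name software version 3.1.0, so the version is uncertain; the text gives the cell filters used here (1000 to 30000 UMIs and at most 14% mitochondrial UMIs). The total is 42038434 to 85988955 UMIs a library. UMIs lessen but do not remove counting error.

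Predicted doublets (0.8% of a library per 1000 barcodes, by a neighbour score) were left out. Cells were clustered with Leiden (scanpy 1.11.5, leidenalg 0.10.2, resolution 2, 2000 variable genes, 40 components) without the class II genes. A cluster was named where at least 3 markers of a class were among its leading genes, with a lead of 2 over the next class; this lead was added after the clusters had been seen. Levels are CPM of a lineage in a library with at least 20 of its cells. Shares were read after thinning cells to 1000 UMIs. Tests were edgeR 4.0.16 (R 4.3.3) quasi-likelihood fits on summed counts with filterByExpr and TMM, by group only, over the 10 replicated libraries; DESeq2 1.42.0 was an alternative. The script was tested on simulated data with known changes. Lineages are clusters of the same cells and were not tested against each other.

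The members, marker lists, pathway lists and tests were chosen with earlier results of these data known. Genes named are the 10 members in any lineage, called genes of the pathway lists (at most 3 per direction), and the 5 genes of at least 50 CPM in a lineage most like the class II chains and Cd74. Irf1, Cd83 and Ly86 levels and the immune markers were named after their values were seen. Some results of the pathway lists are not reported here.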

Additional observations from a re-analysis of the deposited data

Results flagged for a closer look

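In 6 of 106 groups of 5 p21mTert libraries, 1 library stood apart from the other 4 by Dixon's criterion, which chance does in about 1 group in 20. Ciita in B cell-like cells was 262 CPM in p21mTert 1, against 139 to 173. H2-Ob was 7.52 in AT2-like cells of p21mTert 1, against 0.94 to 1.38, and 13.8 in its nonclassical monocyte-like cells, against 4.46 to 6.05. H2-DMb1 in gCap-like cells was 108 in p21mTert 2, against 158 to 175. In classical monocyte-like cells of p21mTert 3, H2-Aa was 1749 (935 to 1140 in the others) and H2-Eb1 was 1089 (572 to 714).

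The same comparison of genotypes ran in opposite directions in different lineages, with no overlap between the libraries of the 2 groups in each. Whether the lineages differ was not tested. With only 2 p21mTertCD libraries, such gaps arise easily without a difference between genotypes. Those listed were picked out for having no overlap, and the share of all genes without overlap was not counted. For H2-Aa, p21mTert was above p21mTertCD in fibroblast-like cells (lowest p21mTert library 113, highest p21mTertCD library 48.2). It was below in gCap-like (highest p21mTert library 775), venous-like (381) and nonclassical monocyte-like cells (390), where the lowest p21mTertCD libraries had 896, 578 and 485. By the criterion of no overlap, the opposite direction rests on fibroblast-like cells alone, where H2-Aa lay in or below the erythroid-like range, the B cell marker Cd79a moved with it, and H2-Aa turned to -0.38 under a marker gate per cell. For Cd74 the nearest p21mTert libraries were 351 in fibroblast-like cells, above, and 2492 in gCap-like, 913 in venous-like and 1580 in nonclassical monocyte-like cells, below.

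Between p21mTertCD and p21Het, H2-Aa was higher in p21mTertCD in gCap-like (lowest library 896, against at most 643), venous-like (578, against at most 382) and nonclassical monocyte-like cells (485, against at most 398), and lower in fibroblast-like cells (highest library 48.2, against at least 77.9). Cd74 was higher in gCap-like (3210), venous-like (1697) and nonclassical monocyte-like cells (1884) and lower in fibroblast-like cells (133, against at least 134). Ciita was higher in gCap-like (104) and venous-like cells (55.4) and lower in cDC1-like cells (136, against at least 137) and fibroblast-like cells (1.97, against at least 2.83). For H2-Aa and Cd74 the opposite direction without overlap again rests on fibroblast-like cells alone, with the same limits. The cDC1-like and the fibroblast-like Cd74 gaps are within rounding of touching. Here too the gaps were picked out for having no overlap, and the share of all genes without overlap was not counted.

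Among cells that no lineage name covers, 2 clusters carried class II RNA far above the erythroid-like level. One of 1111 cells, led by Zbtb32, Fcrl5, Mzb1 and Bhlhe41, had H2-Aa at 3553 (2957 to 4560 over libraries) with Cd74 at 10202 and H2-DMb2 at 463. Another of 617 cells, led by Itih4, Pigr, Chil1 and Muc1, had H2-Aa at 907 (710 to 1011 over 6 libraries) with Cd74 at 4315. Its cells were spread unevenly: 262 in p21Het 2, 107 in p21mTertCD 1, 88 in p21Het 1 and 60 in p21mTert 1. p21mTert 3 had 52, p21mTert 4 had 34, and the remaining libraries had 0 to 8. Chil1 is also among the AT2 markers, and whether these cells belong with AT2-like cells was not tested.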

How the results depend on the processing

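The count of genes called in all kept cells was 0 in each comparison under every setting that kept all libraries. Leaving out 1 library at a time gave 0 to 0 in p21mTert against p21Het, 0 to 2 in p21mTert against p21mTertCD and 0 to 1 in p21mTertCD against p21Het. Of gene and lineage combinations, 0 were called in p21mTert against p21Het, and 6 with no filter on low counts. Calls in p21mTert against p21mTertCD numbered 3, and 10 with DESeq2, 35 with no filter, 5 with a term for the deposit, and 0 within the later deposit or with doublets kept. The 1 call in p21mTertCD against p21Het was venous-like Ciita, which passed the filter only through p21mTertCD. Calls there numbered 4 with DESeq2, 25 with no filter, and 0 with doublets kept or a marker gate per cell. Leaving out 1 library gave 0 to 2, 0 to 7 (7 without p21Het 3) and 0 to 1. Over all genes, calls in p21mTert against p21Het rose too, from 67 to 2153 with no filter, in p21mTert against p21mTertCD from 166 to 2346 with no filter and to 291 with DESeq2, and in p21mTertCD against p21Het from 179 to 1749 and 292. H2-Aa in fibroblast-like cells reversed to -0.38 under the marker gate; the cause was not tested. Leaving out low-depth clusters, chosen after seeing the data, ended the gCap-like Ciita call (-1.26, edgeR adjusted p = 0.0502, against -1.31) and left 2 and 1 calls. Levels above the erythroid-like range were found in 9 lineages, and 13 under the marker gate. Depth limits the venous-like Ciita values, which rest on 3 to 48 UMIs a library.

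With the replicate number as a block, over libraries whose label gives one, 3, 3 and 2 of 140 combinations were called in the 3 comparisons in the order above, where 317, 268 and 238 of 145424 tests over all genes were. In this fit p21mTertCD 1, p21mTert 4 and p21mTert 5 are alone in their blocks and add nothing to the comparisons, so p21mTertCD 2 stands alone for its group, and 1 residual degree of freedom is left where all 8 numbered libraries enter. gCap-like Ciita was then -0.56, venous-like H2-DMa -1.22 and venous-like Ciita -2.49 and 3.09. Venous-like Ciita passed the filter of the main fit only through p21mTertCD, where it is high, so its values here support nothing further. The 4 same-number pairs correlated at -0.22, 0.10, -0.44 and -0.15 in their deviations, and not every library correlated best with its own number. In a group of 2 libraries the deviations mirror each other. p21mTert 2, for example, correlated at -0.22 with p21Het 2 and at 0.22 with p21Het 3. This check therefore cannot decide whether the numbers mark pairs, and they were not taken as pairs.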
